A study of Mus musculus with 15 samples.

Results

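The Clca genes encode secreted or membrane-bound glycoproteins that regulate calcium-activated chloride conductance. The 5 genes described here are Clca4a, Clca4b, Clca1, Clca2 and Clca3a1, and they are 5 of the 19076 genes measured in the colon of interleukin-10-deficient (Il10-/-) and C57 mice. They were chosen by name, as the features whose annotated gene symbol is one of these 5, and each gene has 1 feature among the 44290 on the array. The list was drawn up with the genotype differences in these arrays in view, so the values of the 5 genes are a description and carry no test. A further 2 Clca genes on the array, Clca3a2 and Clca3b, are outside the list and were tested with all other genes.

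CLCA proteins are cut by their own metalloprotease domain, and for human CLCA1 the released part is known to act on the calcium-activated chloride channel TMEM16A, the product of the human counterpart of Ano1. Clca1, formerly named gob-5 or Clca3 in the mouse, is made by goblet cells and is a major non-mucin protein of colonic mucus. Clca4a and Clca4b, formerly Clca6 and Clca7, are intestinal members. Clca3a1 was named Clca1 and Clca3a2 was named Clca2 in older work, so the same symbol can stand for different genes, and features were matched here through their gene identifiers. Interleukin-10 is a cytokine that restrains immune responses to gut bacteria, and mice that lack it develop colitis when colonised.

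The mice were male Il10-/- animals (B6.129P2-Il10<tm1Cgn>/J) and C57 controls (C57BL/6J), examined at 7 or 12 weeks of age with 1 array per mouse. The C57 mice were numbered 43, 44, 45 and 46 at 7 weeks and 63, 64, 65 and 66 at 12 weeks, and the Il10-/- mice 75, 77 and 78 at 7 weeks and 92, 94, 95 and 96 at 12 weeks. Every mouse, controls included, had been inoculated by mouth with Enterococcus faecalis and E. faecium strains together with gut flora of conventional C57BL/6J mice, and all ate an AIN-76A diet in amounts matched to the intake of the Il10-/- group. The 7-week Il10-/- mice had been selected as not inflamed, since animals with early signs in the colon were left out, whereas at 12 weeks this genotype had moderate colitis. Genotype and age were taken from the array titles, because a further label field does not separate the arrays by strain or age.

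The value of a gene is the log2 ratio of colon RNA (labelled Cy3) over a reference pool (labelled Cy5) of mouse small intestine, colon, kidney, liver and fetus RNA. A value of 0 therefore means as much signal as in the pool, and only differences between mice are compared, not levels between genes. Spot intensities were not analysed here, so whether a feature lay above background is not known. The ratios ran in the labelled direction, since the mean of 13 liver genes lay between −3.46 and −2.69 in all 15 mice and the mean of 14 epithelial genes between 0.80 and 1.05. Il10 itself differed by 0.14 ± 0.08 at 7 weeks and 0.13 ± 0.08 at 12 weeks (log2 difference ± SE, adjusted p = 0.373 and 0.363 in limma), and where its feature lies relative to the deleted part is not given in the sources used here. The RNA came from the full thickness of the colon, so fewer cells that express a gene and less RNA per cell cannot be told apart.

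All 7 Clca genes lie in 1 cluster on chromosome 3, in the order Clca3a1, Clca3a2, Clca3b, Clca4b, Clca4a, Clca1 and Clca2 along the assembly GRCm38.p6. The RefSeq promoter windows of 300 bases (250 before the transcription start and 50 after it) were matched for 5 of the 7 genes, not for Clca4a and Clca1. The windows of Clca4b (chr3:144932480-144932779, minus strand) and Clca3a1 (chr3:144760928-144761227, minus strand) are shown because these members passed the study's thresholds in a genotype comparison. Clca4a passed them too but had no matched window. Capitals mark matches on either strand to 4 motifs, TATAAA (the TATA box), TTTAT (core site of the intestinal CDX factors), TTCNNNGAA (a STAT site) and CACCTG (an E-box).
Clca4b: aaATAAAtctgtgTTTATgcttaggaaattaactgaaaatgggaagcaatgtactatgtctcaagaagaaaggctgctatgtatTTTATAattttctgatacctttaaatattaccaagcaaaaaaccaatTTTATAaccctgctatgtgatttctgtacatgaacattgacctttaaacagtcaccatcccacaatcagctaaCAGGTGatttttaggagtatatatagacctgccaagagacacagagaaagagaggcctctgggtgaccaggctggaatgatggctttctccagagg
Clca3a1: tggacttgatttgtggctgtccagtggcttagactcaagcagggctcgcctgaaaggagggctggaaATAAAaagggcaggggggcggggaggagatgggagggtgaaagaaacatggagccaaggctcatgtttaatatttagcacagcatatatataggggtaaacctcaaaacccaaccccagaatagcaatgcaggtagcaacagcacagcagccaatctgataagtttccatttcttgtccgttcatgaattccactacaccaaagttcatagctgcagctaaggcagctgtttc

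The Clca4b window held 4 matches to TTTAT, at bases −248, −237, −166 and −119 from the start, and 2.92% of 32851 mouse promoter windows of this length hold as many. Its 2 TATAAA matches, at −166 and −119, overlapped the last 2 of these on the other strand. It also held 1 CACCTG match at −46. The Clca3a1 window held 1 TTTAT match at −183 and none of the other motifs. TTTAT occurs in 40.0% of all windows, CACCTG in 20.2%, TATAAA in 13.6% and TTCNNNGAA in 8.3%, and a match is a description of the letters only. None of the shares, the 2.92% included, was adjusted for base composition. The Clca4b window is 37.0% G and C, against 48.0% for that of Clca3a1. The windows of Clca3a2 and Clca3b, which were not on the member list, shared an unbroken run of 79 identical bases, against 7 to 9 bases for the other 9 pairs of windows. Probe sequences were not analysed here, so whether a feature of 1 Clca gene also binds RNA of a near-identical copy was not tested.

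Clca4a and Clca4b differed most of the members. In 7-week C57 mice Clca4a lay at −2.35, −2.66, −2.42 and −2.0 (mice 43, 44, 45 and 46). In 7-week Il10-/- mice it lay at 0.26, 0.96 and 1.52 (mice 75, 77 and 78). All Il10-/- mice were thus above all C57 mice, and the nearest pair of the 2 groups, mice 46 and 75, stood on opposite sides of the pool level. The log2 difference was 3.27 ± 0.43 (SE of the limma fit, n = 4 and 3), a 9.63-fold higher ratio. It was the second largest rise of the 19076 genes.

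Clca4b, the neighbouring gene, was at −1.78, −2.33, −2.01 and −1.52 in the same C57 mice. In the Il10-/- mice it was at 0.17, 0.71 and 1.51. The groups did not overlap here either, and within the Il10-/- group the mice kept the order seen for Clca4a, with mouse 75 lowest and mouse 78 highest. The difference was 2.71 ± 0.45, or 6.54-fold, rank 8 among increases.

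The study's thresholds were a 1.5-fold difference and, in limma, a Benjamini-Hochberg false discovery rate below 0.05. At 7 weeks Clca4a and Clca4b passed both, so 2 of the 5 members were called higher and 0 lower, against 1.4% of all genes called higher and 1.01% called lower. The Il10-/- mice were all above the C57 mice for 3 of the 5 members, against 10.8% of all genes, and all below them for 0 of 5, against 12.4%. Nothing is read from these shares, because the members were picked with this comparison known. The median difference was 0.45 over the 5 members and −0.01 over all genes.

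**Figure D1:**
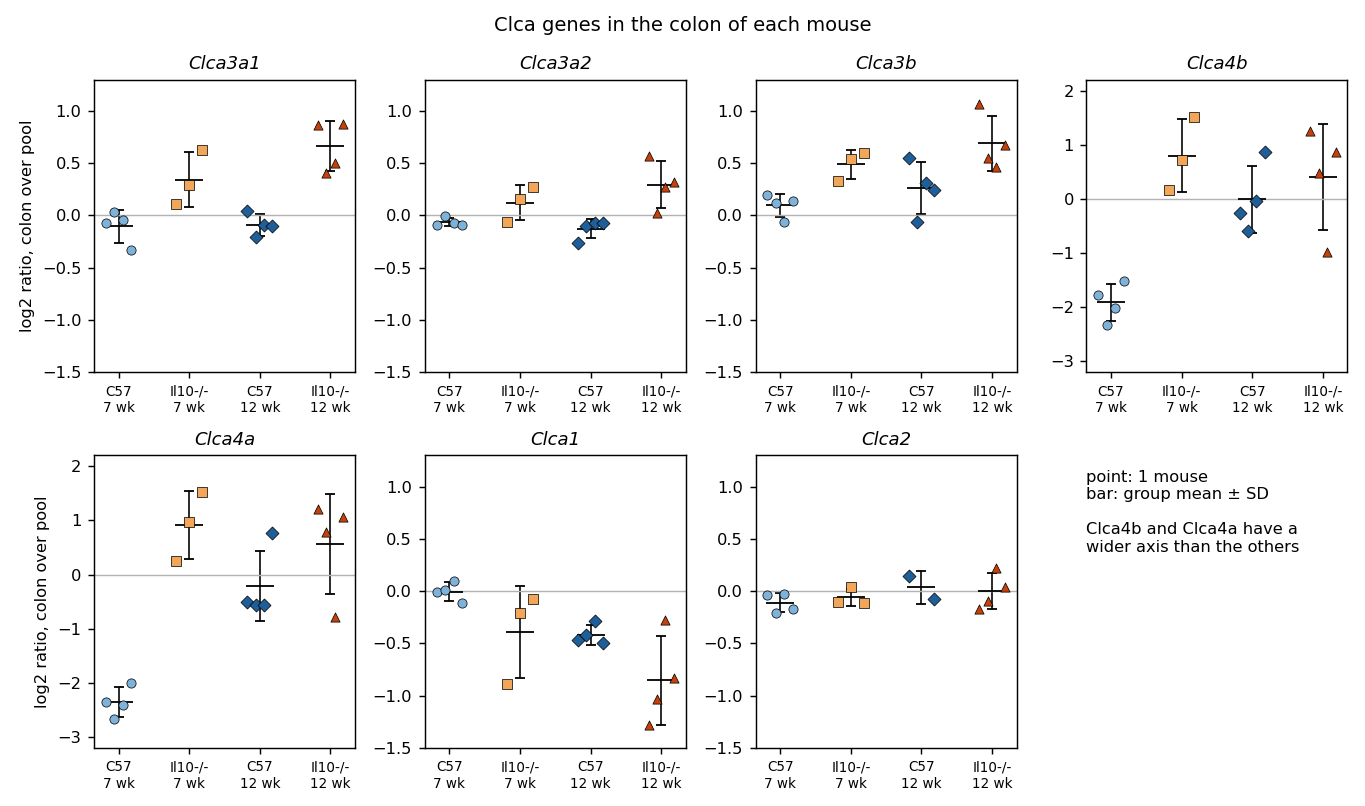
Log2 ratio of colon over reference pool for the 7 Clca genes, 1 point per mouse in 4 groups, with the group mean ± SD. Clca4a and Clca4b are near −2 in 7-week C57 mice alone, Clca3a1 is highest in 12-week Il10-/- mice, and Clca2 stays near 0.

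At 12 weeks the C57 mice were higher than at 7 weeks, and the genotypes were closer. Clca4a stood at −0.50, −0.56, −0.56 and 0.77 in C57 mice 63, 64, 65 and 66. In the Il10-/- mice 92, 94, 95 and 96 it stood at 1.20, 0.79, −0.79 and 1.06. The groups overlapped because Il10-/- mouse 95 was below every C57 mouse, while C57 mouse 66 lay just under Il10-/- mouse 94 and far from the other controls. The difference was 0.78 ± 0.40 (n = 4 and 4) and did not pass the thresholds. Without mouse 95 it was 1.23 ± 0.31, which did pass, and without mice 66 and 95 together, a setting chosen after the values were seen, 1.56 ± 0.24.

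Clca4b showed the same pair of mice apart from their groups. It was at −0.26, −0.59, −0.04 and 0.86 in the 12-week C57 mice and at 1.25, 0.47, −0.99 and 0.87 in the Il10-/- mice, in the order of mouse numbers above. The difference was 0.41 ± 0.42, and 1.16 ± 0.30 without mice 66 and 95. Mouse 66 also stood apart in the mean of 15 small-intestinal genes, at −0.68 against −1.78 to −1.69 in the other C57 mice of that age, and it had the highest mean of the 20 surface colonocyte genes (0.99) and the lowest of the 20 goblet cell genes (0.22) of all 15 mice. Mouse 95 had the highest mean of 12 smooth muscle genes in its group (0.38, against −0.20 to −0.02), the lowest of 15 crypt and cell cycle genes (0.00, against 0.23 to 0.43) and the lowest of 13 leukocyte genes (0.49, against 0.64 to 0.76). The part of these in the Clca4a and Clca4b values was not tested.

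The larger differences with age were those of the controls. From 7 to 12 weeks C57 mice differed by 2.14 ± 0.40 in Clca4a and by 1.90 ± 0.42 in Clca4b, a 4.42-fold and a 3.74-fold higher ratio, with no overlap between the ages for either gene. They were ranks 5 and 7 among increases with age. In Il10-/- mice the corresponding differences were −0.35 ± 0.43 and −0.40 ± 0.45, with overlapping ages, and without mouse 95 their sign turned (0.10 and 0.06). The genotype difference at 12 weeks minus that at 7 weeks was −2.49 ± 0.59 for Clca4a and −2.30 ± 0.62 for Clca4b, and of the pair only Clca4a passed the thresholds for this term. The comparisons share mice, since the 7-week C57 group enters the genotype difference at 7 weeks, the age difference in C57 mice and the interaction.

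In C57 mice 2 of the 5 members were called higher with age, against 0.231% of all genes, and 0 lower, against 0.173%. In Il10-/- mice 0 of 5 were called in either direction, against 0.419%. In C57 mice the ages did not overlap for 2 members that were higher at 12 weeks, against 4.91% of all genes, and for 1 that was lower, against 3.71%. For the interaction 1 of 5 was called lower, against 0.655% of all genes, and 0 higher, against 0.493%. Nothing is read from these shares either. The members were picked with the genotype differences known, and these comparisons use the same mice.

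Several of these calls depended on single mice. Without C57 mouse 66 the age difference in C57 mice was 1.82 ± 0.38 for Clca4a and 1.61 ± 0.42 for Clca4b, and neither was called. Leaving out C57 mouse 44 or 45 also ended the age call of Clca4a. For Clca4b the age call ended when any 1 of 9 mice was left out. The interaction call of Clca4a ended when any 1 of 8 mice was left out, with values of −2.82 to −2.04 over all 15 fits that left 1 mouse out. The 7-week genotype calls of both genes stood in every such fit, at 2.97 to 3.60 for Clca4a and 2.35 to 3.02 for Clca4b. Both genes were picked with this comparison known, so the fits describe how far single mice move the values. They are no test of the differences.

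**Figure D2:**
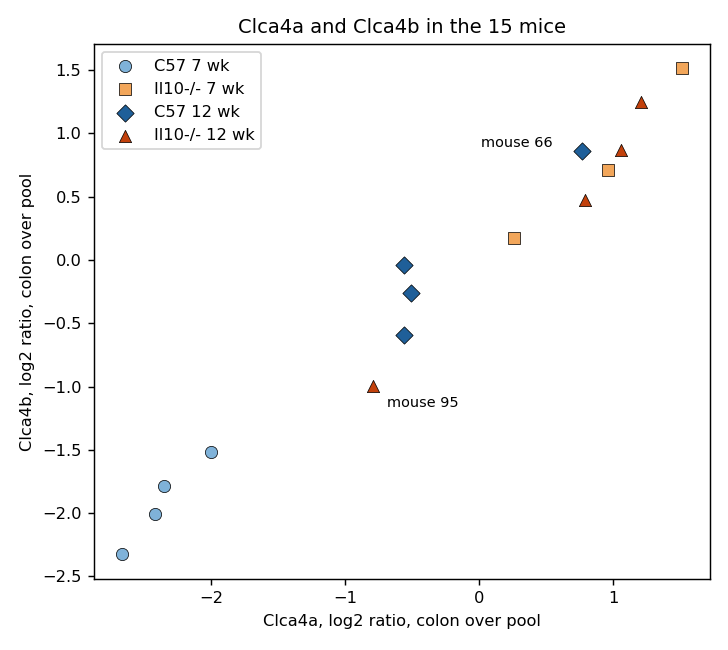
Clca4a against Clca4b in each of the 15 mice, both as log2 ratio of colon over pool, with symbols by group. The 4 7-week C57 mice lie at the lower left, and mice 66 and 95 lie away from their groups along the same line.

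Clca4a and Clca4b varied together among mice. Over the 15 mice Pearson's r was 0.987 and Spearman's rho 0.986. The pooled value includes the gap between the 7-week C57 mice and the rest, but the deviations from the group means also followed each other, with r = 0.972 and rho = 0.95, and r = 0.946 without mice 66 and 95. These are given as a description, with 15 pairs among 6 Clca genes computed and no p, and the 2 genes were read from the same arrays. Clca4a and Clca4b have 1 feature each, and whether either feature also binds RNA of the other gene was not tested. No other pair exceeded r = 0.655 in its deviations, the value for Clca3a1 and Clca3a2.

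Among 18715 other genes with values in all mice, those most like Clca4a after Clca4b were Capg, which encodes an actin-capping protein (r = 0.949), and Rab32, a small GTPase of vesicle traffic (r = 0.945). Those most like Clca4b after Clca4a were Rab32 (r = 0.962) and Itgb6, the epithelial integrin beta-6 subunit (r = 0.954). In deviations from group means r was 0.797 for Capg and 0.772 for Rab32 against Clca4a, and 0.849 for Rab32 and 0.936 for Itgb6 against Clca4b. These genes were picked for a pattern in which the 7-week C57 mice stand apart, so their own genotype differences are given as a description, with no test. At 7 weeks the difference was 0.96 ± 0.17 for Capg, 0.74 ± 0.12 for Rab32 and 0.34 ± 0.09 for Itgb6, and at 12 weeks it was 0.38 ± 0.16, 0.05 ± 0.11 and 0.11 ± 0.08.

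Clca3a1, the first gene of the cluster, followed another course. In C57 mice it lay at −0.07, 0.03, −0.05 and −0.33 at 7 weeks (mice 43 to 46) and at 0.04, −0.21, −0.10 and −0.10 at 12 weeks (mice 63 to 66). In Il10-/- mice it lay at 0.11, 0.29 and 0.63 at 7 weeks (mice 75, 77 and 78) and at 0.87, 0.41, 0.51 and 0.87 at 12 weeks (mice 92, 94, 95 and 96). Every Il10-/- mouse was above every C57 mouse, at both ages. The difference was 0.45 ± 0.13 at 7 weeks, below the fold threshold, and 0.76 ± 0.12 at 12 weeks, a 1.69-fold higher ratio that passed.

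The controls of Clca3a1 did not shift with age (0.02 ± 0.12), unlike those of Clca4a and Clca4b. Il10-/- mice at 12 weeks differed from those at 7 weeks by 0.32 ± 0.13, with overlap, and the genotype difference at 12 weeks minus that at 7 weeks was 0.31 ± 0.18, which did not pass the thresholds. At 12 weeks Clca3a1 was the 1 member of 5 called higher, against 1.5% of all genes, and the 1 member whose Il10-/- mice were all above the C57 mice, against 6.48%. At that age 0 of 5 were called lower, against 1.02%, and 0 of 5 had all Il10-/- mice below the C57 mice, against 7.05%. The 12-week call stood in each of the 15 fits that left out 1 mouse (0.69 to 0.84). Nothing is read from these shares or fits, because the members were picked with the 12-week comparison known too.

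The genes most like Clca3a1 over the 15 mice were AI661453 (r = 0.933), Zc3h12a (r = 0.929) and the olfactory receptor gene Olfr930 (r = 0.924). Zc3h12a encodes the ribonuclease Regnase-1, which degrades messenger RNAs of inflammatory cytokines. Its genotype difference was 1.52 ± 0.13 at 7 weeks and 1.51 ± 0.12 at 12 weeks, and its deviations from group means had r = 0.923 with those of Clca3a1. AI661453 and Olfr930 differed by 0.29 ± 0.09 and 0.13 ± 0.06 at 7 weeks and by 0.44 ± 0.08 and 0.26 ± 0.05 at 12 weeks. These 3 genes were picked for their likeness to a gene that separates the genotypes at both ages, so no test of their differences is given.

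The 2 genes beside Clca3a1 were not on the member list and were tested with all other genes. Their tests are not independent of the choice of members, which was made with the genotype differences known. Over the 15 mice Clca3a2 and Clca3b also varied with Clca3a1 (r = 0.886 and 0.853). Clca3a2 lay between −0.09 and 0.00 in the 7-week C57 mice, at −0.06, 0.16 and 0.27 in the 7-week Il10-/- mice, between −0.26 and −0.07 in the 12-week C57 mice, and at 0.56, 0.02, 0.28 and 0.32 in the 12-week Il10-/- mice. Only at 12 weeks did the genotypes not overlap. The difference was 0.19 ± 0.10 at 7 weeks (adjusted p = 0.327, limma) and 0.42 ± 0.10 at 12 weeks (adjusted p = 0.00951), which is 1.34-fold and under the fold threshold.

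Clca3b differed by 0.39 ± 0.14 at 7 weeks (adjusted p = 0.108) and by 0.43 ± 0.13 at 12 weeks (adjusted p = 0.0504). Its 12-week values were 1.07, 0.55, 0.46 and 0.68 in Il10-/- mice and 0.55, −0.06, 0.31 and 0.25 in C57 mice, where C57 mouse 63 reached into the Il10-/- range. The interaction did not pass for either gene (0.24 ± 0.14, adjusted p = 0.426, and 0.03 ± 0.19, adjusted p = 0.948). Clca3a1, Clca3a2 and Clca3b all had positive genotype differences at both ages, of 0.19 to 0.76.

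**Figure D3:**
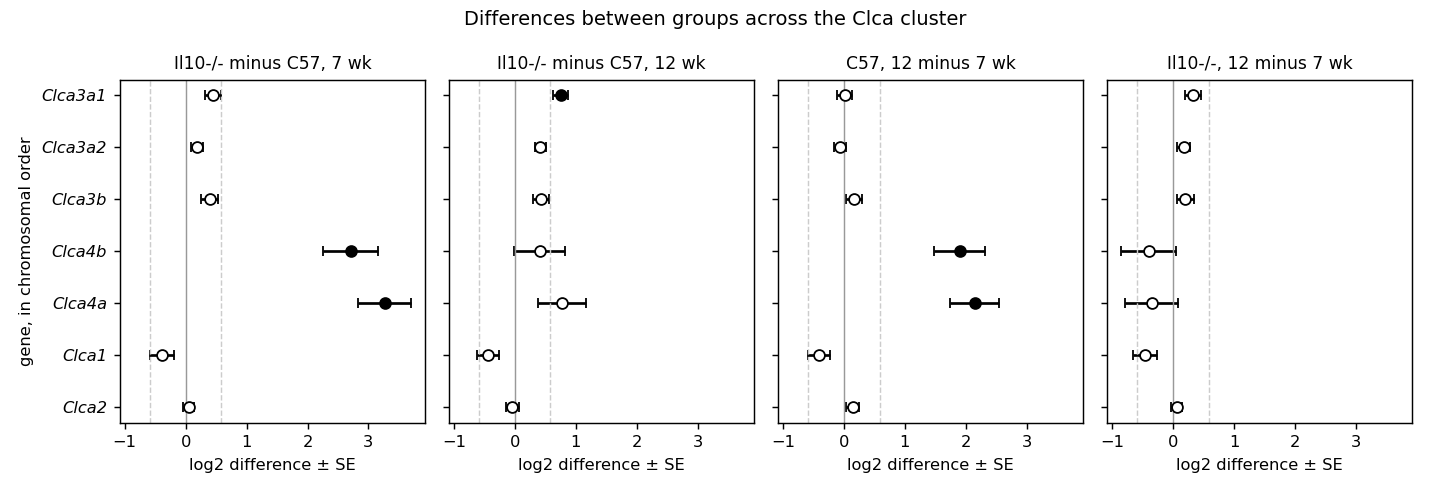
Log2 differences ± SE for the 7 Clca genes in chromosomal order, in 4 comparisons between groups, with filled points for genes past the fold and adjusted p thresholds and dashed lines at a fold of 1.5. Clca4b and Clca4a are filled at 7 weeks and in the C57 age comparison, and Clca3a1 at 12 weeks.

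Clca1, the goblet cell gene, was the member with lower values in Il10-/- mice. In 7-week C57 mice it lay at −0.01, 0.01, 0.10 and −0.12, and in 7-week Il10-/- mice at −0.89, −0.21 and −0.07. In 12-week C57 mice it lay at −0.47, −0.42, −0.28 and −0.50, and in 12-week Il10-/- mice at −1.28, −1.03, −0.28 and −0.83. At both ages the genotypes overlapped through 1 Il10-/- mouse, number 78 at 7 weeks and number 95 at 12 weeks, whose value was close to those of the controls.

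The difference in Clca1 was −0.38 ± 0.20 at 7 weeks and −0.44 ± 0.18 at 12 weeks, and neither passed the thresholds. At 7 weeks it rested on mouse 75, without which it was −0.13. At 12 weeks it was −0.63 without mouse 95, and Clca1 was then called. The 2 ages of C57 mice did not overlap, with 12 weeks lower by a log2 difference of −0.41 ± 0.18, and the Il10-/- mice differed by −0.47 ± 0.20 between ages, with overlap. These SEs use 1 spread for all 4 groups. The SD of Clca1 at 7 and 12 weeks was 0.088 and 0.095 in C57 mice, and 0.44 and 0.43 in Il10-/- mice.

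On 3 arrays Clca1 held exactly the value shared by 92 to 147 features of that array (mice 44, 63 and 77), so in these mice the value is not particular to Clca1. Without these 3 values, a setting chosen after they were seen, the difference was −0.47 ± 0.26 at 7 weeks and −0.46 ± 0.22 at 12 weeks. As spot intensities were not analysed, whether the Clca1 values of the other mice are limited in a like way is not known. The genes most like Clca1 over the 15 mice were Deup1, which acts in centriole amplification of multiciliated cells (r = 0.924), the pseudokinase gene Nrbp2 (r = 0.914) and the cytochrome P450 gene Cyp2d10 (r = 0.908). Their genotype differences lay between −0.22 and −0.11 at both ages and, as the genes were picked for likeness, carry no test.

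Clca2, at the other end of the cluster, had values in 13 of the 15 mice, with none for C57 mice 63 and 66, so its 12-week C57 mean rests on 2 mice. It lay between −0.21 and −0.03 in 7-week C57 mice, at −0.10, 0.03 and −0.11 in 7-week Il10-/- mice, at 0.15 and −0.07 in 12-week C57 mice, and between −0.18 and 0.22 in 12-week Il10-/- mice. All groups overlapped. The genotype difference was 0.05 ± 0.09 at 7 weeks and −0.04 ± 0.11 at 12 weeks, and Clca2 had the smallest spread of the members over the mice (SD 0.13, against 0.38 to 1.44 for the others). Without spot intensities, a feature that did not vary and one that was not detected cannot be told apart.

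**Figure D4:**
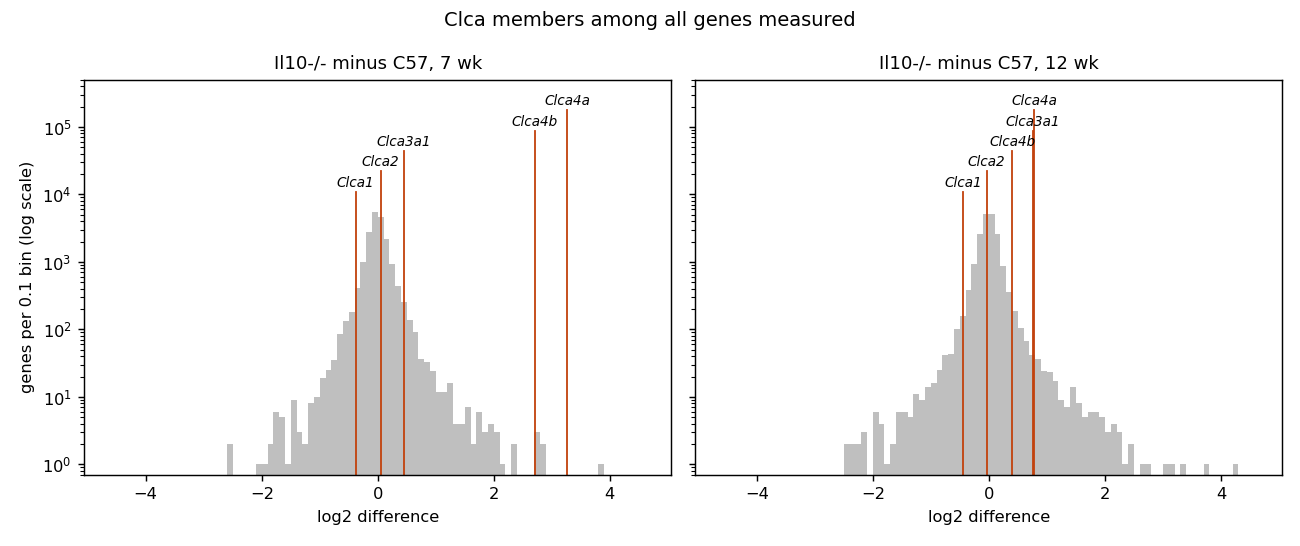
Histograms of the log2 difference between Il10-/- and C57 mice at 7 weeks (left) and 12 weeks (right) for all genes outside the member list, on a log count axis, with the 5 Clca members as labelled lines whose height has no meaning. At 7 weeks Clca4a (3.27) and Clca4b (2.71) lie at the far right of the distribution, and at 12 weeks all 5 lie between −0.44 and 0.78.

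The genes on either side of the cluster were not called. Of 6 neighbours in genome order 4 had values, Sh3glb1 and Selenof before Clca3a1 and Odf2l and Col24a1 after Clca2. Sh3glb1, which acts in membrane curvature and autophagy, differed by 0.16 ± 0.08 at 7 weeks (adjusted p = 0.264, limma) and by 0.04 ± 0.08 at 12 weeks (adjusted p = 0.79). Selenof, a selenoprotein of the endoplasmic reticulum, differed by 0.14 ± 0.10 (adjusted p = 0.442) and 0.23 ± 0.09 (adjusted p = 0.119). Odf2l and Col24a1 differed by −0.10 to 0.00 at both ages, with adjusted p of 0.471 to 0.988.

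Of 35 other genes of chloride and fluid transport that were measured, 3 rose and 1 fell at 7 weeks, and 0 rose and 3 fell at 12 weeks. The rises at 7 weeks were in the water channel genes Aqp8 (2.81 ± 0.46, adjusted p = 0.0012) and Aqp4 (1.76 ± 0.21, adjusted p = 7.72e-05) and in Car4, a membrane-bound carbonic anhydrase (0.83 ± 0.18, adjusted p = 0.00851). Prkg2, a cGMP-dependent kinase that activates the chloride channel CFTR, fell by 0.98 ± 0.11 (adjusted p = 4.33e-05). The falls at 12 weeks were in Car2, the cytosolic carbonic anhydrase (−2.33 ± 0.18, adjusted p = 7.13e-07), Aqp8 (−2.21 ± 0.42, adjusted p = 0.00276) and Slc26a3, the chloride-bicarbonate exchanger of surface colonocytes (−1.5 ± 0.21, adjusted p = 0.000182). The median difference of the list was 0.07 at 7 weeks and −0.10 at 12 weeks, against −0.01 and 0.00 over all genes. In this list 8 genes had a lower and 1 a higher genotype difference at 12 than at 7 weeks by the interaction test, and the list was written with earlier results of these data known.

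Of the chloride and anion channels in this list 3 are named here after their values were seen, and none of the 3 was called at either age. Cftr, the cAMP-activated chloride channel, differed by 0.08 ± 0.08 at 7 weeks (adjusted p = 0.599) and 0.05 ± 0.07 at 12 weeks (adjusted p = 0.733). Ano1, the calcium-activated chloride channel, differed by −0.39 ± 0.11 at 7 weeks (adjusted p = 0.0423) and −0.12 ± 0.10 at 12 weeks (adjusted p = 0.522). Best2, an anion channel of goblet cells, differed by −0.38 ± 0.11 (adjusted p = 0.0475) and −0.06 ± 0.10 (adjusted p = 0.797). The 7-week values of Ano1 and Best2 had an adjusted p under 0.05 but a fold under 1.5.

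Markers of the cell types in the colon wall moved with genotype in several ways, and their part in the Clca values was not tested. Of 20 goblet cell and mucus genes 1 rose at each age, Retnlb, the resistin-like antibacterial protein of goblet cells (2.80 ± 0.23 at 7 weeks, adjusted p = 2.62e-06, and 1.59 ± 0.21 at 12 weeks, adjusted p = 0.00012). In all 7 Il10-/- mice Retnlb held exactly the value shared by 119 to 149 features of the array, so the size of its rise is not particular to it, and without such values it could not be tested. At 7 weeks 1 fell, the kallikrein Klk1 (−0.97 ± 0.22, adjusted p = 0.0106, a call that ended without mouse 78), and at 12 weeks 1 fell, the secreted goblet cell peptide gene Spink4 (−0.88 ± 0.19, adjusted p = 0.00539). Muc2, the main gel-forming mucin of the colon and named here after its value was seen, differed by 0.12 ± 0.23 at 7 weeks and 0.00 ± 0.22 at 12 weeks (adjusted p = 0.83 and 0.996). The mean of the goblet list lay between 0.22 and 0.60 in all mice, with overlap between the genotypes at both ages.

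**Figure D5:**
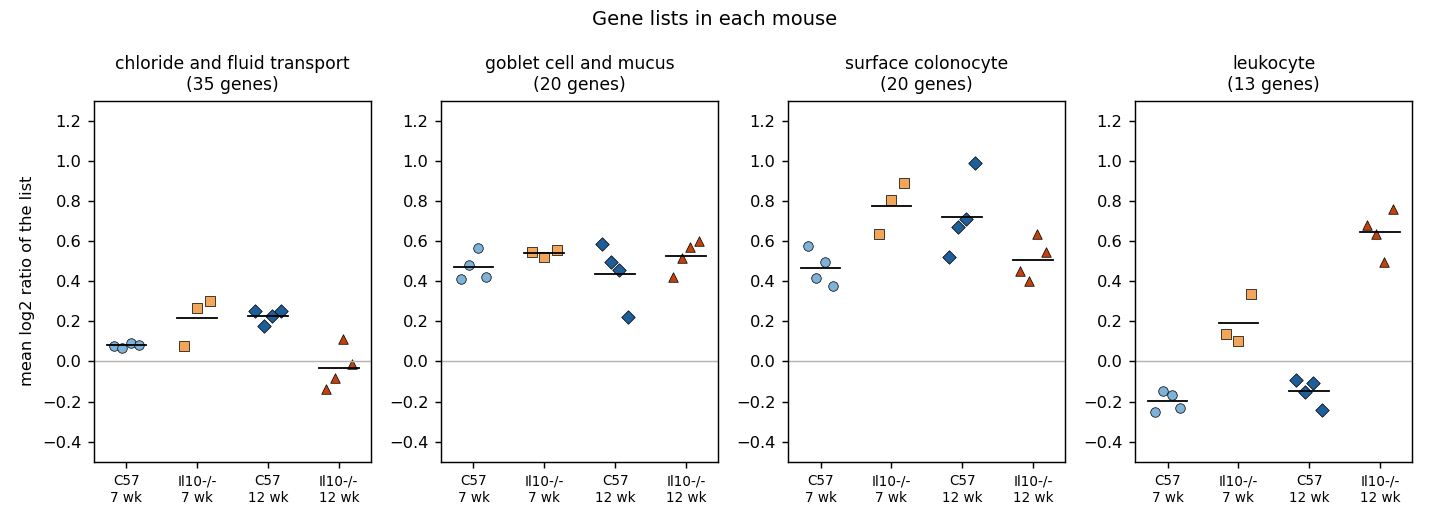
Mean log2 ratio of colon over pool for 4 gene lists in each mouse, 1 point per mouse, with the group mean as a line. The leukocyte means of all Il10-/- mice (0.10 to 0.76) lie above those of all C57 mice (−0.25 to −0.09), and the goblet list overlaps between genotypes.

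Of 20 surface colonocyte genes 4 rose at 7 weeks, and 1 rose and 4 fell at 12 weeks. Muc13, a transmembrane mucin, rose at both ages (0.92 ± 0.10, adjusted p = 5.49e-05, and 0.82 ± 0.10, adjusted p = 4.39e-05), while Ceacam20, a cell adhesion molecule of the brush border, rose at 7 weeks (0.83 ± 0.14, adjusted p = 0.00186). At 12 weeks Ceacam20 differed by 0.50 ± 0.13 (adjusted p = 0.0249, limma), under the fold threshold. Tmigd1, an epithelial adhesion molecule, fell at 12 weeks (−1.06 ± 0.28, adjusted p = 0.0246), a call that ended in 6 of 27 other settings, and Aqp8, Car4 and Slc26a3 of this list are given above. Of 15 crypt and cell cycle genes 5 rose at 7 weeks, among them Plk1 (1.03 ± 0.19, adjusted p = 0.00306), and 0 at 12 weeks. Of 14 epithelial genes only the transcription factor gene Elf3 was called, at 7 weeks (0.70 ± 0.09, adjusted p = 0.000197). Its 12-week difference was 0.38 ± 0.09 (adjusted p = 0.00928, limma), under the fold threshold.

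Of 13 leukocyte genes 3 rose at 7 weeks and 5 at 12 weeks. They included S100a9, a calprotectin subunit of neutrophils (2.00 ± 0.37, adjusted p = 0.00325, and 3.33 ± 0.35, adjusted p = 1.16e-05), and Cd14, the lipopolysaccharide co-receptor (0.95 ± 0.10, adjusted p = 5.32e-05, and 0.99 ± 0.09, adjusted p = 4.77e-06). The mean of the leukocyte list was between −0.25 and −0.15 in 7-week C57 mice and between 0.10 and 0.34 in 7-week Il10-/- mice, and between −0.24 and −0.09 and between 0.49 and 0.76 at 12 weeks. Of 12 smooth muscle genes 0 were called at 7 weeks and 4 fell at 12 weeks, among them Myh11 (−0.87 ± 0.21, adjusted p = 0.0132). Of 19 genes of the interleukin-4 and interleukin-13 axis, which drives Clca1 in the airway epithelium of the mouse, 2 rose and 1 fell at 7 weeks and 2 rose at 12 weeks, with Retnlb and its shared values as 1 of the 2 rises at each age. The receptor chain gene Il13ra1 differed by 0.66 ± 0.08 at 7 weeks (adjusted p = 0.000114) and by 0.56 ± 0.07 at 12 weeks (adjusted p = 0.000134), and Il4ra by 0.56 ± 0.11 (adjusted p = 0.00383) and 0.70 ± 0.10 (adjusted p = 0.000213). The smaller value of each was just under the fold threshold, so the other rise was Il13ra1 at 7 weeks and Il4ra at 12 weeks. Retnla, a resistin-like protein of macrophages, fell at 7 weeks (−0.84 ± 0.20, adjusted p = 0.0157), a call that ended in 3 of 27 other settings.

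Genes that differ along the gut also moved in the 7-week comparison in which Clca4a and Clca4b were higher, and their part in it was not tested. Of 13 posterior Hox genes, which mark position along the body axis, 3 rose at 7 weeks and 0 fell, namely Hoxa10 (1.08 ± 0.13, adjusted p = 0.000108), Hoxa11 (0.81 ± 0.13, adjusted p = 0.00099) and Hoxa9 (0.79 ± 0.12, adjusted p = 0.000673). The median of the list was −0.05, and 0 were called at 12 weeks. Of 15 small-intestinal genes 2 rose and 1 fell at 7 weeks, and 1 rose and 1 fell at 12 weeks. Ada, adenosine deaminase, rose at 7 weeks (1.84 ± 0.33, adjusted p = 0.00264), and Slc10a2, the ileal bile acid transporter, fell at both ages (−1.49 ± 0.26, adjusted p = 0.00186, and −1.16 ± 0.24, adjusted p = 0.00461). Lyz1, the lysozyme of Paneth cells, rose at 7 weeks (0.85 ± 0.24, adjusted p = 0.0398), a call that ended in 6 of 27 other settings, and at 12 weeks (1.87 ± 0.22, adjusted p = 4.35e-05).

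Within groups, the members also differed in which of these lists they followed. Deviations from the group means of Clca1 went with those of the chloride and fluid list (r = 0.932, and 0.838 without the 2 mice farthest from the median) and against those of the crypt and cell cycle list (r = −0.762 and −0.625), and those of Clca3a1 went with the leukocyte list (r = 0.717 and 0.709). Clca1 also went with the posterior Hox (0.677 and 0.432), smooth muscle (0.580 and 0.426) and surface colonocyte lists (0.512 and 0.331). With the goblet list its r was 0.309, and 0.375 without the 2 farthest mice. By rank, its rho was 0.729 with the chloride and fluid list and −0.704 with the crypt and cell cycle list. On 3 arrays the Clca1 value is the one shared by many features. For Clca4a and Clca4b no list stood out, since the values with the goblet list (r = −0.555 and −0.545) became −0.388 and −0.438 without the 2 farthest mice, when those with the epithelial list for Clca4a (0.504) and the posterior Hox list for Clca4b (0.465) were farther from 0. These are descriptions over 15 mice from 44 pairs of 4 members and 11 lists, with no p, and both sides come from the same arrays.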

How the data were processed

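Colon RNA of single mice was hybridised on 15 two-colour arrays. The authors applied loess within each array and no background correction, and the deposited values are log2 ratios of colon over reference pool, used here unchanged. The aligner and genome build do not apply to arrays, and the limma version of the authors is not given in the sources used here. Between 41687 and 42147 of 44290 features had a value on an array. The number of mice, not depth, limits the precision, and p-values set a group difference against the spread between mice within groups, as limma estimates it. No deposited column lay outside the samples (0 columns).

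A gene's value was the mean over its features annotated to no other gene in the platform annotation, which gave 19076 genes from 32016 features once each group was required to have 2 arrays with a value. Of 44290 features 32042 listed 1 gene, 47 several and 12201 none in that annotation. All 7 Clca genes were matched by gene identifier.

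Differences came from limma 3.58.1 (R 4.3.3, lmFit and eBayes, 4 group means, 15 mice, 11 residual degrees of freedom), with Benjamini-Hochberg adjustment over all genes and calls at a fold of 1.5 and an adjusted p under 0.05. On simulated data for the 19076 genes, planted changes of 2-fold were recovered in 98% of genes at 7 weeks and 96% at 12 weeks, and those of 1.5-fold, at the threshold itself, in 32% and 40%. The planted genes were drawn at random, 50 per fold, so these shares do not give the recovery for Clca4a or Clca4b. Those 2 genes had SDs within groups of 0.66 and 0.70. Summaries and figures used Python 3.11.15 with pandas 2.3.3, numpy 2.4.6, scipy 1.17.1 and matplotlib 3.10.9.

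The members and gene lists were chosen with earlier results of these data known. The genes named were all Clca genes, the 3 genes with the highest r to each member with an SD of 0.3 or more, up to 4 called genes with the largest change per list and genotype comparison, and the 3 genes on each side of the cluster. Genes outside this rule are said to be so. Some called genes of the lists that meet the rule appear by count only.

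Promoter windows were taken from RefSeq (GRCm38.p6), which gave those of 5 Clca genes. The protein comparison that was planned was not run, as protein sequences were not used here. Alternatives were median centring, quantile or scale normalisation, other feature summaries, features without shared values, only the groups compared, a robust prior, array weights, genes with values on all arrays, no fold threshold, a fold of 2 and leaving out each mouse.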

Additional observations from a re-analysis of the deposited data

Results flagged for a closer look

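Dixon's test was applied to 53 groups of 4 mice, of which chance flags about 1 in 20, and it picked out 4. The groups share mice and hold genes that vary together, so they are not independent. The flags, those of members included, are a description. Clca4a in 12-week C57 mice was set apart by mouse 66, at 0.77 against −0.56 to −0.50 in the others. The same mouse stood apart in the mean of the small-intestinal genes, at −0.68 (log2 ratio). Clca3a2 in 12-week C57 mice was set apart by mouse 63, at −0.26, and the mean of the interleukin-4 and interleukin-13 axis in 12-week Il10-/- mice by mouse 92, at −0.0331.

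For Clca4a the genotype difference at 12 weeks minus that at 7 weeks was −2.49 ± 0.59. Clca4a was chosen with these values known, so this is a description and no test, and it was past the thresholds in all but 8 of 26 other settings. Among the other genes named by the rule, the genotype difference changed between the ages by the interaction test (limma, fold of 1.5 and adjusted p under 0.05) in the chloride and fluid list by −5.02 for Aqp8, −2.19 for Slc26a3, −1.94 for Car2, −1.32 for Aqp4, −1.02 for Car4 and 0.65 for Prkg2, and these calls ended in 3, 13 and 9 of 26 other settings for the last 3. It changed by −1.54 for the goblet cell gene Spink4, by 1.83 for Jchain, the joining chain of secreted antibodies. For Rab32, picked for its likeness to Clca4a and Clca4b, the value was −0.69 and is a description. Of 13 posterior Hox genes 3 were lower by this test and 0 higher, Hoxa10, Hoxa11 and Hoxa9 (−1.26, −0.97 and −0.96), and 7 of the 13 had a positive value (median 0.01). The liver genes Ahsg and Apoh changed by 0.88 and 0.96, calls that ended in 1 and 15 of 26 other settings. All are log2 differences.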

How the results depend on the processing

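The 7-week calls of Clca4a and Clca4b and the 12-week call of Clca3a1 held under all 3 normalisations between arrays, and no result that was called changed direction under any alternative. The members were picked with these comparisons known, so for them this describes the dependence on processing only. At a fold of 2 the 12-week call of Clca3a1 ended, leaving 0 members called. Without mice 66 and 95, chosen after seeing the data, the 12-week differences were 1.56 for Clca4a and 1.16 for Clca4b, and 4 members were called in place of 1. With array weights 2 members were called for the interaction in place of 1. Leaving out 1 mouse gave 1 to 3 members called at 12 weeks, 0 to 2 for the interaction and 0 to 2 with age in C57 mice, and 2 at 7 weeks and 0 with age in Il10-/- mice throughout. In the gene lists, leaving out 1 mouse moved the chloride and fluid genes that rose at 7 weeks from 3 to 2 (without mouse 78) or 5 (without mouse 75) and those that fell at 12 weeks from 3 to 5 (without mouse 95), the surface colonocyte genes that rose at 7 weeks from 4 to 7 (without mouse 75), the cell cycle genes that rose at 7 weeks from 5 to 2 (without mouse 78) or 3 (without mouse 43, 44, 45 or 75), the smooth muscle genes that fell at 12 weeks from 4 to 2 (without mouse 65), the goblet genes that fell at 7 weeks from 1 to 0 (without mouse 78) and at 12 weeks from 1 to 2 (without mouse 66), and those that rose from 1 to 2 (at 7 weeks without mouse 45, 92 or 95, at 12 weeks without mouse 63).

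Over all genes, 461 were called at 7 weeks, 481 at 12 weeks, 219 for the interaction, 77 with age in C57 mice and 80 with age in Il10-/- mice. With no fold threshold these became 1565, 1929, 430, 204 and 264, at a fold of 2 they became 131, 189, 58, 26 and 31, and with features tested one by one 903, 1035, 517, 139 and 255. With only the groups compared in the fit, 52 were called with age in Il10-/- mice. Leaving out 1 mouse gave 330 to 497, 456 to 560, 136 to 262, 36 to 96 and 50 to 111. No paired analysis was possible because the groups share no mouse numbers. Whether dim features carry the ratios as well as bright ones could not be examined without intensities.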
